A study of Mus musculus with 20 samples.

Results

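The genes described here are 9 cathepsins (Ctsa, Ctsb, Ctsc, Ctsd, Ctsh, Ctsk, Ctsl, Ctss and Ctsz) and legumain (Lgmn), the main proteases of the lysosome. They were taken by name from the 22660 rows of the count table, and all 10 had a row and passed the filter on low counts in every comparison. RNA was sequenced from the plantaris, a small ankle extensor muscle, of 20 old mice whose labels give an age of 2 years, with 5 mice in each of 4 groups. Mechanical overload (MOV) of the plantaris was produced in both legs by cutting out part of the gastrocnemius and soleus, which share its work, while in sham mice the skin was opened and closed. D + Q mice received dasatinib (5 mg/kg), a tyrosine kinase inhibitor, with quercetin (50 mg/kg), a plant flavonoid, by gavage on days 7 and 10, vehicle mice received the carrier alone, and muscles were taken on day 14. For sham mice the submitters' design text gives the second gavage as day 14. All mice were C57BL/6 J males of the same age, and the groups are called by treatment and then surgery, from vehicle sham to D + Q MOV. Ctsk was selected on its difference between D + Q and vehicle in MOV muscle, so values in that contrast are a description and carry no test.

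Lysosomal proteases break down proteins that reach the lysosome by autophagy, endocytosis or phagocytosis, and some are also secreted and act outside the cell. Most cathepsins are cysteine proteases, whereas cathepsin D is an aspartic protease and cathepsin A a serine carboxypeptidase. Cathepsin K is the main collagen-degrading protease of osteoclasts and is also made by fibroblasts, and cathepsin S is best known in antigen-presenting cells, where it trims the invariant chain of MHC class II. In muscle fibers the lysosome takes part in fiber protein turnover, and the transcription factor TFEB, with its relatives, drives lysosomal genes through palindromic sites of the form TCACGTGA.

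Ctsk and Ctss, the genes that rose most with overload, lie next to each other on chromosome 3 of GRCm39, Ctsk at chr3:95406178-95416732 and Ctss at chr3:95433963-95463717, both on the plus strand with 17230 bases and no protein-coding gene between them. Ctsd lies at chr7:141929646-141941775 on the minus strand and Ctsc at chr7:87927092-87960096 on the plus strand, and Ctsa at chr2:164674778-164682961 on the plus strand and Ctsz at chr2:174267304-174280832 on the minus strand. The others are Ctsb at chr14:63358384-63383372 on the plus strand, Ctsh at chr9:89936205-89958148 on the plus strand, Ctsl at chr13:64507151-64518704 on the minus strand and Lgmn at chr12:102359122-102414682 on the minus strand. Some share exon bases with a gene on the other strand, Ctsz with Nelfcd over 29.2% of its exon bases and Ctsl with Gm47123 over 26.1%. Ctsa does so with Pltp over 24.3% and with Neurl2 over 12.6%, and Ctsb with Fdft1 over 15.4%. The strand setting of the counting is not given in the sources used here, so reads in those stretches cannot be told apart. On the same strand Ctsd shares 29.2% with Gm49369 and Ctsl 5.92% with Gm49230. In vehicle sham mice the mean level was 0.174 CPM for Gm47123 and 0 for Gm49369, and in vehicle MOV mice 0.142 and 0.137 CPM.

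The promoters of Ctsa and Ctsd, whose levels changed least with overload, and of Ctsk and Ctss, whose levels changed most, are shown with the letters of 2 regulatory motifs. Windows came from RefSeq on GRCm38.p6, reach from 250 bases before a transcription start to 50 after it, and were given for 8 of the 10 genes (10 windows). Ctsb and Ctsh had no window, so no motif was searched in them. Printed are the first 270 bases of each, 5′ to 3′ on the gene's strand, from chr2:164833523-164833792 (Ctsa, plus strand, the second of its windows), chr7:142387808-142388077 (Ctsd, minus strand), chr3:95498960-95499229 (Ctsk, plus strand) and chr3:95526536-95526805 (Ctss, plus strand). Capitals mark CACGTG in Ctsa and Ctsd and, in Ctss, ACTTCCTC, the reverse complement of GAGGAAGT, a core bound by the macrophage factor PU.1.
Ctsa: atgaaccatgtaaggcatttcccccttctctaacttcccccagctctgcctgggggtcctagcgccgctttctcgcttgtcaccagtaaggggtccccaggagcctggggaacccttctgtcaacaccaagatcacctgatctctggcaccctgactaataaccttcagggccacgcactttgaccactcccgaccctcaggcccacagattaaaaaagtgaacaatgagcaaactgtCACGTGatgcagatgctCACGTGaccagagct
Ctsd: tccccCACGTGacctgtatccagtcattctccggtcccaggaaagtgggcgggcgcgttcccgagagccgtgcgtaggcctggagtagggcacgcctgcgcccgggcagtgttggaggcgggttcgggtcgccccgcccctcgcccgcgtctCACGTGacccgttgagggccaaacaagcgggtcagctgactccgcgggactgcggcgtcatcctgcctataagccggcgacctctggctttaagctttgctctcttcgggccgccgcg
Ctsk: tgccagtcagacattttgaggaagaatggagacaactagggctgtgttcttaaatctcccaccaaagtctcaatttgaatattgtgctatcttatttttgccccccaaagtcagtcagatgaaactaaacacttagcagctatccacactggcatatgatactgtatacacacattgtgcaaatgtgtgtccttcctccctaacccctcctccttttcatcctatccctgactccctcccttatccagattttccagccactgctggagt
Ctss: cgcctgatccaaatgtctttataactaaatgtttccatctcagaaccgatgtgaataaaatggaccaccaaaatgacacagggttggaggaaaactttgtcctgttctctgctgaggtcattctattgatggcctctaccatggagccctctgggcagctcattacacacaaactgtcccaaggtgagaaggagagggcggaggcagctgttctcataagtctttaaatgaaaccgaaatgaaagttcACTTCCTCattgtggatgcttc

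The 8-letter TFEB palindrome TCACGTGA was found in the windows of Ctsa and Ctsd and in no other of these 10 windows, against 0.974% of all 32851 promoter windows of the same length. Ctsa held it at 2 places, with first bases 238 and 255 of the window, and Ctsd once, with first base 152. Its 6-letter core CACGTG, which every TCACGTGA contains, was present in 4 of the 8 genes with a window, Ctsa, Ctsd, Ctsl and Lgmn, and in 7.15% of all windows. The Ctsk window held none of the 5 motifs, all searched on both strands. GAGGAAGT was found in Ctss, starting 2 bases before the start site, and in Ctsc, and in 3.2% of all windows. CATGTG was found in Ctsa, Ctss and Lgmn and in 14.2% of all windows, and TGACTCA, the AP-1 site, was in none of the 10 windows and in 5.2% of all.

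Total counts per mouse lay between 17887532 and 26234518. Levels are given as CPM, the number of reads a gene has relative to the TMM-scaled library total, and every one of these genes was well counted, the lowest being 41 counts for Ctsk in a vehicle sham mouse. TMM scaling puts the median fold change of all tested genes near zero. With scaling to total counts alone, every fold change of MOV against sham moved up, by a median of 0.377 on the log2 scale with vehicle and 0.365 with D + Q. Changes with overload are therefore changes relative to the middle of all genes. Tests were 2-sided and compared 5 mice with 5 by edgeR's quasi-likelihood method, adjusted over all tested genes, and a gene is said to rise or fall where its adjusted p was under 0.05.

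Overload of the plantaris with vehicle raised 7 of the 10 genes and lowered none. Ctsk rose most (17.4-fold), followed by Ctss (9.9-fold), Ctsh (3.73-fold), Lgmn (2.98-fold), Ctsz (1.96-fold), Ctsl (1.43-fold) and Ctsb (1.32-fold). Of all 14601 tested genes 30.7% were higher in MOV and 29.8% lower. The members were chosen with earlier results of these data known, so 7 of 10 beside that share is a description. The median log2 fold change was 0.74 over the 10 genes and -0.015 over all tested genes. In all 7 the 5 MOV mice lay above the 5 sham mice, as they did for 23.8% of all tested genes. Ctsc, Ctsa and Ctsd did not pass the test. With total counts alone all 10 were called higher in MOV, where 52.6% of all tested genes were higher and 9.95% lower, so the calls of Ctsa, Ctsc and Ctsd depend on the scaling.

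**Figure D1:**
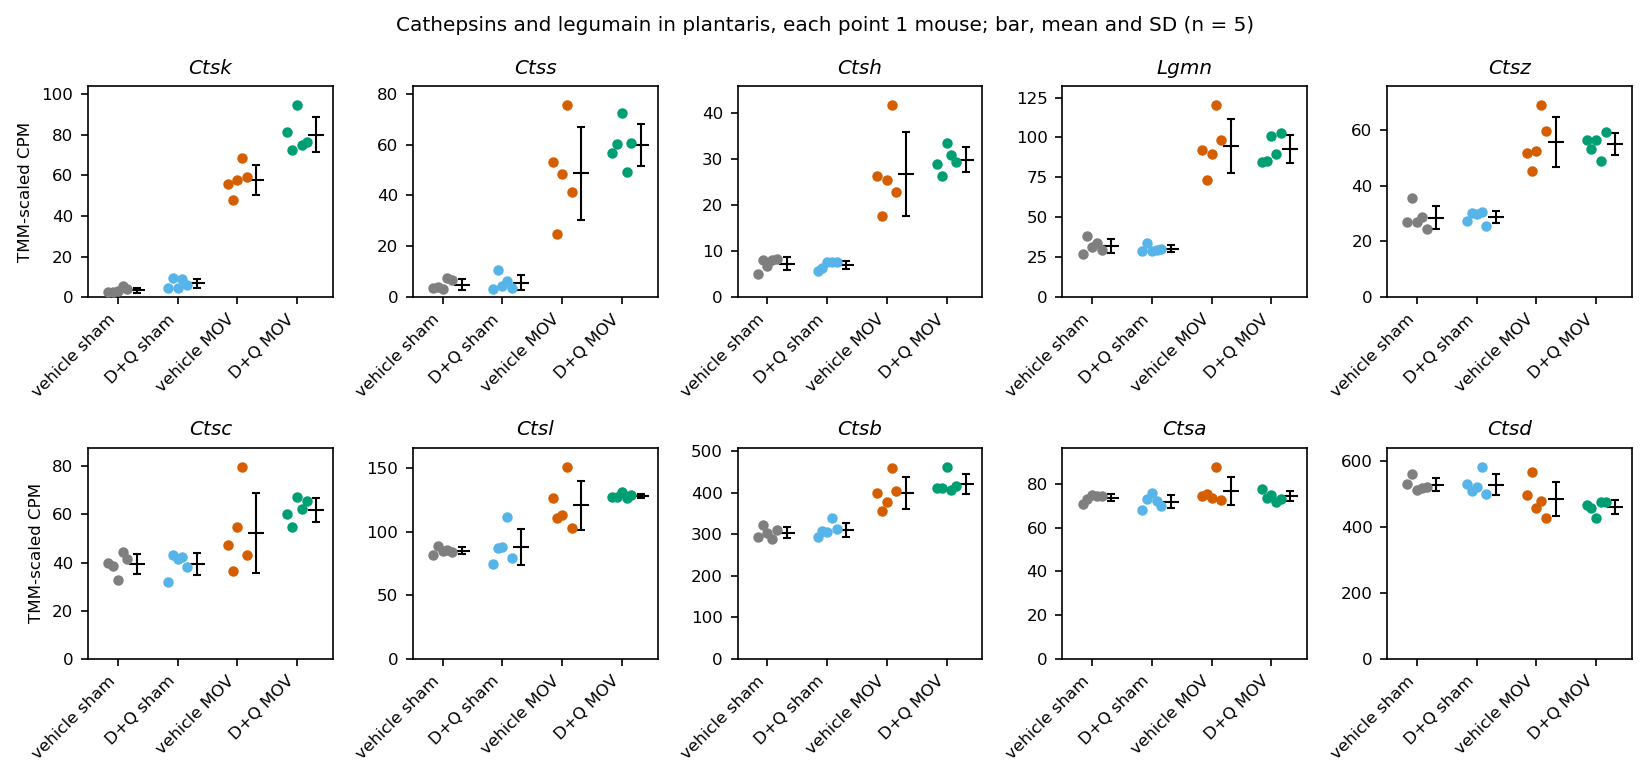
TMM-scaled CPM of each gene (y axes from 0, 1 panel a gene) in the 4 groups (x axis), with 1 point for each mouse and the mean and SD of 5 mice beside them. The MOV points of Ctsk, Ctss, Ctsh, Lgmn and Ctsz stand clear of the sham points. Those of Ctsa overlap with sham, and its points in all 4 groups lie between 68.2 and 88.0 CPM.

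Ctsk, the collagen-degrading cysteine protease, was low in sham muscle with vehicle. Its level in the 5 vehicle sham mice was 2.53, 2.36, 2.87, 5.27 and 3.76 CPM. In vehicle MOV mice it was 56, 48.1, 57.7, 68.7 and 59.2 CPM. The lowest MOV mouse thus stood far above the highest sham mouse, a log2 fold change of 4.12 (SE 0.19, adjusted p = 8.64e-09, edgeR), and Ctsk ranked 134 of 14601 tested genes by fold change. With D + Q the sham mice had 4.71, 9.39, 4.34, 9.07 and 6.04 CPM. The D + Q MOV mice had 81.6, 72.6, 94.6, 75.1 and 76.7 CPM, a rise of 3.62 on the log2 scale (SE 0.206, adjusted p = 1.23e-07, edgeR). The MOV mice of both comparisons also entered the contrast on which Ctsk was chosen.

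Ctss, the cathepsin of antigen-presenting cells, was low in sham muscle too, at 3.77, 3.91, 3.0, 7.53 and 6.58 CPM in vehicle sham mice. In vehicle MOV mice it reached 53.1, 25.0, 48.3, 75.6 and 41.5 CPM. The groups did not overlap, but MOV mice differed among themselves more than for any other of the genes, with a coefficient of variation of 37.8% and a log2 fold change of 3.31 (SE 0.352, adjusted p = 2.69e-05, edgeR). With D + Q, Ctss went from 3.14, 10.5, 4.48, 6.45 and 3.55 CPM in sham mice to 56.6, 60.2, 72.5, 49.4 and 60.8 CPM in MOV mice. That is a log2 fold change of 3.47 (SE 0.291, adjusted p = 5.17e-06, edgeR), again with every MOV mouse above every sham mouse.

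Ctsh, an aminopeptidase, and Lgmn, which cuts after asparagine and processes other cathepsins, formed the next step. Ctsh was 5.05, 8.05, 6.69, 7.99 and 8.4 CPM in vehicle sham mice and 26.3, 17.6, 25.5, 41.8 and 22.8 CPM in vehicle MOV mice. No MOV mouse came near the sham range (log2 fold change 1.9, SE 0.227, adjusted p = 2.26e-05, edgeR). Lgmn was 27.0, 38.2, 31.4, 33.8 and 29.7 CPM in vehicle sham mice and 92.1, 73.1, 89.9, 120.2 and 98.3 CPM in vehicle MOV mice. This rise of 1.57 on the log2 scale (SE 0.125, adjusted p = 2.19e-07, edgeR) also left the groups apart. With D + Q the log2 fold change was 2.13 for Ctsh (SE 0.0964) and 1.65 for Lgmn (SE 0.0707), both with every MOV mouse above every sham mouse.

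Ctsz, Ctsl and Ctsb rose less. Ctsz, a carboxypeptidase, ranged from 24.4 to 35.6 CPM in vehicle sham mice and from 45.3 to 69.0 CPM in vehicle MOV mice (log2 fold change 0.97, SE 0.118). Ctsl, a broad endopeptidase, ranged from 81.5 to 88.9 CPM and from 102.6 to 151.2 CPM (0.51, SE 0.0919). Ctsb, an abundant cathepsin with endopeptidase and peptidyl-dipeptidase activity, ranged from 289.2 to 321.8 CPM and from 355.3 to 460.0 CPM (0.4, SE 0.0772). All 3 rose in D + Q mice as well, by 0.97 for Ctsz, 0.58 for Ctsl and 0.48 for Ctsb on the log2 scale. Ctsb and Ctsl rose by a factor of less than 1.5 in either treatment, and a change of that size is common among all genes: Ctsb ranked 4511 of 14601 by fold change.

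Ctsc, the dipeptidyl peptidase that activates the serine proteases of immune cell granules, gave a result that turned on single mice. It was 39.6, 38.6, 32.9, 44.6 and 41.3 CPM in vehicle sham mice and 47.2, 36.6, 55, 79.9 and 43.1 CPM in vehicle MOV mice. The groups overlapped and the difference did not pass (log2 fold change 0.42, SE 0.187, adjusted p = 0.0753, edgeR). Without vehicle MOV mouse 2, the lowest, the adjusted p was 0.0144, while without vehicle MOV mouse 4, the highest, the log2 fold change was 0.23. Over all alternatives the adjusted p lay between 0.00871 and 0.145. In D + Q mice Ctsc rose from between 31.7 and 43.1 CPM to between 54.6 and 67.2 CPM without overlap, by 0.7 on the log2 scale (SE 0.0796, adjusted p = 5.52e-07, edgeR).

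Ctsa, which also protects lysosomal β-galactosidase and neuraminidase from breakdown, was the steadiest of the genes. It ranged from 71.0 to 75.2 CPM in vehicle sham mice and from 72.6 to 88.0 CPM in vehicle MOV mice, which is no call (log2 fold change 0.07, SE 0.0663, adjusted p = 0.391, edgeR). With D + Q the difference was 0.09 (SE 0.0517, adjusted p = 0.154, edgeR). With total counts alone it was 0.45 in both treatments and passed the test. Pltp, whose exons lie opposite part of Ctsa, went from a mean of 10.6 to 40.8 CPM with overload and vehicle, and its share in the Ctsa counts was not tested.

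Ctsd, the aspartic protease and the most abundant of these transcripts, was 530.5, 561.1, 512, 518.6 and 521.5 CPM in vehicle sham mice. In vehicle MOV mice it was 496, 566.2, 458.8, 479.6 and 426 CPM, overlapping with sham (log2 fold change -0.12, SE 0.0803, adjusted p = 0.223, edgeR). With D + Q, sham mice had 529.9, 508.6, 522, 583.2 and 500.9 CPM and MOV mice 466.4, 458.7, 426, 475.8 and 476.2 CPM. There Ctsd fell by 0.16 on the log2 scale (SE 0.0606, adjusted p = 0.0271, edgeR), a direction that total counts alone turned to 0.20. The call was lost without D + Q MOV mouse 2 (adjusted p = 0.0714), D + Q MOV mouse 3 (0.0668) or D + Q sham mouse 4 (0.0785).

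In D + Q mice, overload thus raised 8 of the 10 genes and lowered Ctsd, where 34.4% of 14913 tested genes were higher and 30.9% lower. The median log2 fold change was 0.84 over the 10 genes and 0.023 over all tested genes. In all 8 the MOV mice lay above the sham mice, as they did for 26.5% of all tested genes. Of the 8, 7 were also called higher with vehicle, and Ctsc was added. By fold change the genes stood in one order in both treatments, from Ctsk and Ctss through Ctsh, Lgmn and Ctsz to Ctsb, Ctsa and Ctsd, except that Ctsl was above Ctsc with vehicle and below it with D + Q. Whether the responses of the 2 treatments differ is given below as a description only.

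**Figure D2:**
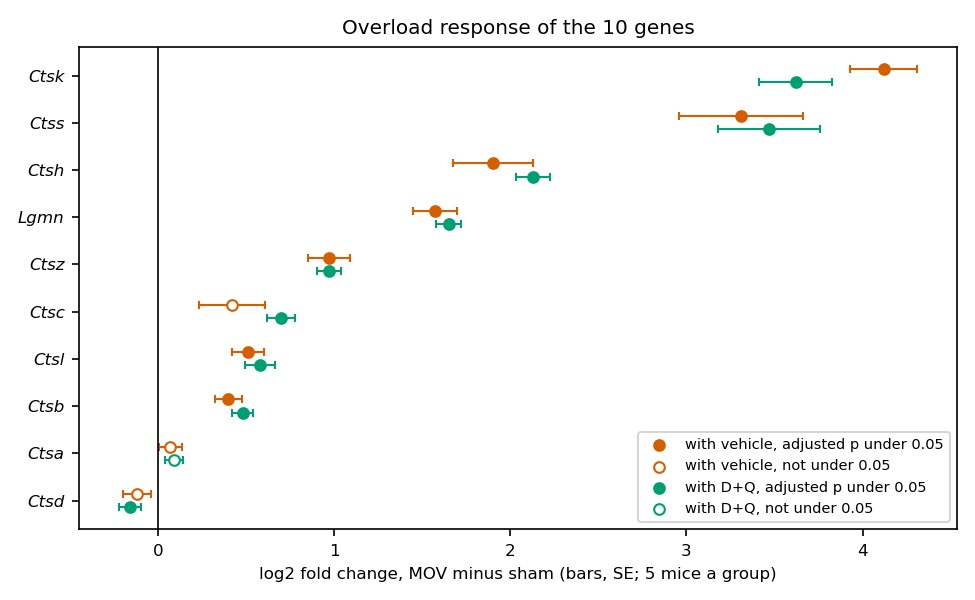
Log2 fold change of MOV against sham (x axis) for each gene (y axis) with vehicle and with D + Q, bars giving the SE from 5 mice a group and open points an adjusted p not under 0.05. Ctsk and Ctss stand between 3.31 and 4.12, and Ctsa and Ctsd near 0, where scaling by total counts alone moves Ctsd to 0.26 with vehicle and 0.20 with D + Q.

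Because longer transcripts give more reads, levels of different genes were compared only as CPM per kilobase of annotated exon. By that level Ctsd stood first in all 4 groups, at 191.1 ± 6.97 (SD, n = 5) in vehicle sham muscle and 175.4 ± 18.9 with overload, and Ctsb second, at 39.6 ± 1.71 and 52.1 ± 5.09. In vehicle sham mice Ctsa (14.3 ± 0.316) and Ctsl (12.7 ± 0.405) followed, then Ctsz (7.72 ± 1.14) and Ctsc (6.3 ± 0.685), then Lgmn (3.87 ± 0.512). Ctsh (1.45 ± 0.276), Ctsk (1.14 ± 0.407) and Ctss (0.934 ± 0.372) came last, apart from Lgmn but not from each other beyond their spread. In vehicle MOV mice Ctsk took the place after Ctsb, at 19.7 ± 2.51 CPM per kilobase, but Ctsl (18.1 ± 2.86) was within its spread.

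The 10 genes summed to 279.1 ± 9.62 CPM per kilobase in vehicle sham mice and 329.5 ± 23.4 in vehicle MOV mice, and to 281.3 ± 16.6 and 335.4 ± 5.74 with D + Q (SD, n = 5). Ctsd made up 68.5% ± 0.676 of that sum in vehicle sham mice and 53.3% ± 5.14 in vehicle MOV mice, with mice between 67.9% and 69.6% and between 47.5% and 61.3%. With D + Q its share was 68.0% ± 1.32 in sham and 49.6% ± 2.45 in MOV mice. The share of Ctsk was 0.41% ± 0.151 in vehicle sham, 0.805% ± 0.266 in D + Q sham, 5.98% ± 0.688 in vehicle MOV and 8.11% ± 0.817 in D + Q MOV mice. The sham and MOV ranges of both shares did not overlap in either treatment. The lower places depend on the length taken for each gene: with the Ensembl canonical transcript, which is 1366 bases for Ctss against 5305 bases of annotated exon, Ctss followed Ctsb in vehicle MOV mice at 35.7 ± 13.5 CPM per kilobase, with Ctsk at 30.6 ± 3.9 next and within its spread.

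**Figure D3:**
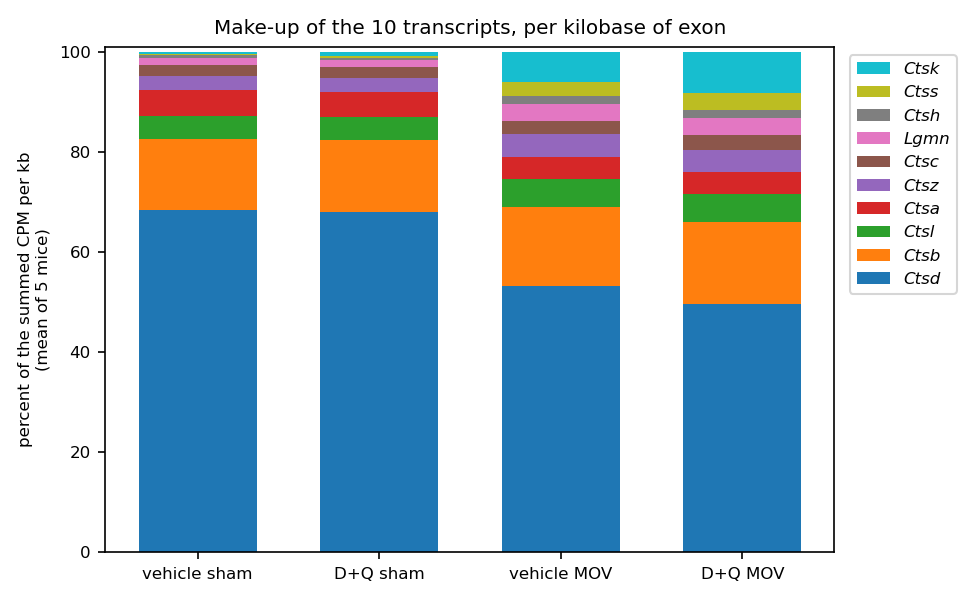
Share of each gene in the summed CPM per kilobase of exon of the 10 genes (y axis, percent, mean of 5 mice) in the 4 groups (x axis). Ctsd takes 68.5% and 68.0% in the sham groups and 53.3% and 49.6% in the MOV groups, and the share of Ctsk widens from 0.41% to 5.98% with vehicle and from 0.805% to 8.11% with D + Q.

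In sham muscle, where D + Q and vehicle were compared without overload, none of the 10 genes was called in either direction by edgeR, against 0.187% of 13926 tested genes higher and 0.0287% lower. At an unadjusted p under 0.05 edgeR, DESeq2 and limma each counted 1 of the 10, beside 10.2%, 7.15% and 11.2% of all the genes each tested, so this count is near the background. DESeq2 alone called 1 after adjustment, beside 0.995% of the genes it adjusted (123 genes). That gene was Ctsk. Its mean was 3.36 CPM in vehicle sham and 6.71 CPM in D + Q sham mice, and 3 of the 5 D + Q mice lay above all vehicle mice. For none of the 10 genes did all 5 lie above, against 1.35% of all tested genes. The log2 fold change was 0.98 (SE 0.27) with an adjusted p of 0.22 by edgeR and 0.0262 by DESeq2, and from 0.0262 to 0.393 over all alternatives. The summed level of 8 fibroblast markers was 469.2 to 701.1 CPM in vehicle sham and 582.7 to 1253 CPM in D + Q sham mice. In D + Q sham mice 1 to 5 the markers summed to 582.7, 1253, 799.8, 790.1 and 795.2 CPM, beside 4.71, 9.39, 4.34, 9.07 and 6.04 CPM of Ctsk. The median log2 fold change of the 8 markers between D + Q and vehicle in sham muscle was 0.48. None of the 8 markers was called, and their part in the Ctsk difference was not tested. The other 9 genes had log2 fold changes between -0.10 and 0.15, with standard errors from 0.0496 to 0.374 and adjusted p from 0.746 to 0.986 (edgeR). Ctss had the widest error, so a change in it could only be seen if large.

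In MOV muscle Ctsk was higher in every D + Q mouse than in every vehicle mouse, the pattern it was selected on. The range was 48.1 to 68.7 CPM with vehicle and 72.6 to 94.6 CPM with D + Q, a log2 fold change of 0.45 (SE 0.0936) or 1.37-fold. Among all 15238 tested genes, 0.853% had all 5 D + Q mice above all 5 vehicle mice, and 0.0% were called by edgeR (0 genes, with 1340 at an unadjusted p under 0.05, 13 called by DESeq2 and 0 by limma). The other 9 genes overlapped between the treatments, with log2 fold changes from -0.09 for Ctsd to 0.28 for Ctss (SE 0.237) and 0.23 for Ctsc (SE 0.17). The values of Ctss and Ctsc rest on single vehicle mice, being 0.12 and 0.13 without vehicle MOV mouse 2 and 0.49 and 0.42 without vehicle MOV mouse 4. Fibroblast markers summed to 6019 to 12006 CPM in vehicle MOV and 10750 to 14958 CPM in D + Q MOV mice, with 0 of 8 called, and their part in the Ctsk difference was not tested.

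The overload response of Ctsk was smaller on the log2 scale with D + Q than with vehicle by 0.54 (SE 0.295), while its sham level was the higher with D + Q. For the other 9 genes the difference between the responses ran from -0.08 to 0.24, the highest being Ctsc (SE 0.216). The term holds the contrast on which Ctsk was chosen, so these values are a description and no test of them is given. Among all 15700 tested genes it called 0.0127% (2 genes).

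D + Q MOV mice were more alike in these genes than vehicle MOV mice. The median coefficient of variation over the 10 genes was 7.58% in D + Q MOV and 16% in vehicle MOV mice, beside 12.1% in vehicle sham and 9.8% in D + Q sham mice. Ctsl was the extreme case, with 127.2, 127, 130.9, 126.7 and 128.7 CPM in the D + Q MOV mice against 126.5, 110.5, 112.8, 151.2 and 102.6 CPM in the vehicle MOV mice. Single mice stood at the ends of the vehicle MOV group in most genes. Vehicle MOV mouse 4 was the highest of its group in 9 of the 10 genes and mouse 2 the lowest in 7. The difference in spread was not particular to these genes and was not tested. Over the genes of the whole table, pairs of vehicle MOV mice differed by a chi-square per degree of freedom of 12.9 to 68.4. For pairs of D + Q MOV mice it was 7.18 to 23.2.

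Markers of cell types that the muscle holds moved with overload as well. Of 12 macrophage markers 11 rose with vehicle and 12 with D + Q, and their sum went from between 63.7 and 165.3 CPM in vehicle sham to between 309 and 933.9 CPM in vehicle MOV mice, and from between 73.4 and 174.8 to between 679.2 and 820.3 CPM with D + Q. All 8 fibroblast markers rose in both treatments, while the sum of 8 fiber markers went from between 136753 and 155579 to between 79274 and 110698 CPM with vehicle. Of these 8, 4 fell (Ckm, Myh4, Tnnt3 and Tnni2), Myh2 rose (log2 fold change 0.74, SE 0.127) and 3 were not called with vehicle, and total counts alone gave 4 higher and 4 lower. Other cell types moved too, where 30.7% of all tested genes rose with vehicle. All 3 satellite cell markers and 4 of 6 endothelial markers rose in both treatments. With vehicle 1 of 2 tested T and NK cell markers, 1 of 2 tested neutrophil markers and 0 of 4 mast cell markers rose. Of 3 tested adipocyte markers 2 fell with vehicle, and 1 with total counts alone. No macrophage, fibroblast or fiber marker was at 0 in every mouse of a group. Among the vehicle MOV mice, mouse 4 had the highest macrophage sum (933.9 CPM) and fibroblast sum (12006 CPM) and the lowest fiber sum (79274 CPM), and mouse 2 the lowest macrophage sum (309 CPM) and fibroblast sum (6019 CPM) and the highest fiber sum (110698 CPM). Those are the mice that were highest and lowest in most of the cathepsins. In whole muscle, more cells of a type and more RNA per cell cannot be told apart, and the part of cell numbers in the rise of Ctss, Ctsk and the others was not tested. Osteoclast markers summed to 1.12 to 1.79 CPM in vehicle sham and 3.79 to 6.65 CPM in vehicle MOV mice, and of the 5 only Acp5, which macrophages make too, passed the count filter with vehicle.

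**Figure D4:**
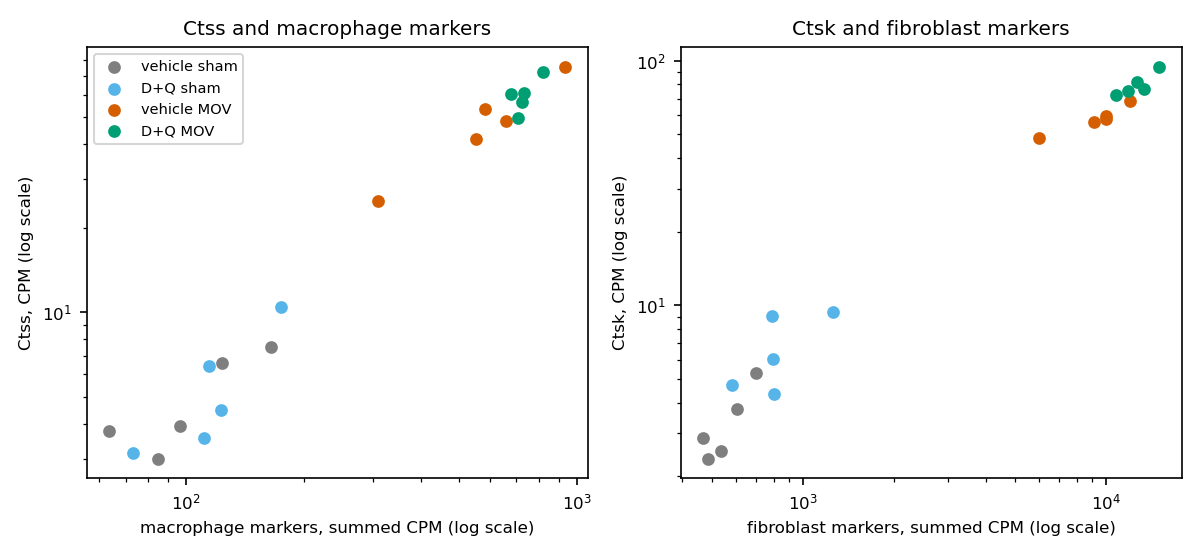
Ctss against the summed CPM of 12 macrophage markers (left) and Ctsk against that of 8 fibroblast markers (right), both axes on log scales, 1 point a mouse, coloured by group. The sham and MOV mice form separate groups in both panels, and vehicle MOV mouse 2 (25.0 CPM of Ctss at 309 CPM of markers) is the lowest MOV point.

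The genes whose profile over the 20 mice was most like each member, by the root mean square difference of centred log2 CPM, were looked up among 15699 other genes. Nearest to Ctss were Mpeg1, a pore-forming protein of macrophages (0.2), and the complement factor Cfb (0.229). Nearest to Ctsk were Mfap5, a protein of matrix microfibrils (0.298), and Lhfpl2 (0.304). Ctsd was closest to Acox3, a peroxisomal oxidase (0.0569), and to Lamp1 (0.0604), and Ctsl to Lamp2 (0.0969) and Akt1 (0.106), Lamp1 and Lamp2 being the main proteins of the lysosomal membrane. Ctsh was nearest to Grn, which encodes progranulin (0.163), and Selenon (0.18). For Ctsa these were Spcs1 (0.0543) and Rps3 (0.0567), for Ctsb Bzw1 (0.0608) and Hnrnpf (0.0658), for Ctsc Rarres2 (0.148) and Ski (0.152), for Ctsz Mtch1 (0.116) and Cmpk1 (0.12), and for Lgmn Dynll1 (0.116) and Tmed3 (0.138). Among the members themselves Ctsb and Ctsl were the closest pair (0.116), and Ctsa and Ctsd came next (0.151). The measure is small between any genes that change little over the 20 mice. Low values for Ctsa, Ctsd, Ctsb and Ctsl therefore do not by themselves show a shared pattern.

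Other soluble enzymes of the lysosome moved with overload too. Of 31 glycosidases, lipases and other hydrolases, 21 rose and 4 fell with overload and vehicle (26 and 0 with total counts alone), with a median log2 fold change of 0.77. The largest rise was in Acp5, tartrate-resistant acid phosphatase (2.74, SE 0.311), and the largest fall in Gaa, which breaks down glycogen in the lysosome (-0.5, SE 0.0844). Of 6 other lysosomal peptidases 4 rose, Prcp most (2.25, SE 0.15), and 1 fell, Tpp1 (-0.42, SE 0.0888). With total counts alone neither Gaa (-0.13) nor Tpp1 (-0.04) passed the test. The other cathepsins Ctse, Ctsf, Ctsg, Ctso and Ctsw gave only 2 tested genes, of which none was called with vehicle and 1 rose with D + Q, while with total counts alone both were higher in both treatments.

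Of 16 lysosomal membrane proteins 6 rose and 5 fell, Cd68, a macrophage lysosomal protein, most among the first (2.85, SE 0.327) and Npc1, a cholesterol exporter, most among the second (-0.89, SE 0.0964). Total counts alone gave 10 and 1. Of 18 tested subunits of the V-ATPase, the pump that acidifies the lysosome, 6 rose, Tcirg1 most (1.75, SE 0.139), and 5 fell, Atp6v0e2 most (-0.68, SE 0.0913), and total counts alone gave 14 and 1. Over the 5 lysosomal lists together, leaving out the 10 members, 37 of 73 tested genes were higher and 15 lower with vehicle, and 42 and 17 of 74 with D + Q. Of all tested genes 30.7% were higher and 29.8% lower with vehicle, and 34.4% and 30.9% with D + Q. With total counts alone the lists gave 56 and 2 with vehicle and 60 and 4 with D + Q, where 52.6% and 56.3% of all genes were higher and 9.95% and 11.1% lower.

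Of 3 tested lysosome transcription factors 1 rose and 2 fell in each treatment, and total counts alone gave 1 and 2 with vehicle. Tfeb, a master regulator of lysosomal genes, fell most, from a mean of 91.4 CPM in vehicle sham to 52.1 CPM in vehicle MOV mice (log2 fold change -0.8, SE 0.0725). Its relative Tfe3 rose from 10.6 to 16 CPM (0.61, SE 0.136), and both kept their direction with total counts alone. Of 14 autophagosome factors 2 rose, Gabarapl1 most (0.39, SE 0.0851), and 5 fell, Ulk1 most (-0.79, SE 0.103), although total counts alone gave 9 and 2. With D + Q 1 of the 14 rose and 8 fell, and Gabarapl1 was at -0.08 (adjusted p = 0.513, edgeR). Of 6 genes that sort enzymes to the lysosome 2 rose, M6pr most (0.35, SE 0.0863), and 1 fell, Sort1 (-0.65, SE 0.0937), where total counts alone gave 4 and 1.

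Most genes in the lists that hold known partners of Ctss and Ctsk also rose. All 7 genes of MHC class II presentation, the pathway Ctss serves, rose in both treatments, H2-DMb1 most with vehicle (2.35, SE 0.367). Of 6 collagen uptake and breakdown genes, the setting in which Ctsk is known, 5 rose in each treatment, Mmp14, a membrane collagenase, most with vehicle (3.63, SE 0.165), and 1 fell with D + Q. Of 5 tested cathepsin inhibitors 4 rose in each treatment, Ctla2a most with vehicle (2.23, SE 0.161). Between D + Q and vehicle none of the genes in these 3 lists was called by edgeR in MOV muscle, where edgeR called 0.0% of all 15238 tested genes, so nothing is read from that count. The paper, which used DESeq2, reported higher Mmp14 expression with D + Q in MOV muscle. Its mean here was 132 CPM in vehicle MOV and 176 CPM in D + Q MOV mice. In sham muscle only Mmp14 was called, higher with D + Q (means of 10.7 CPM with vehicle and 17.7 CPM with D + Q). Of all 13926 tested genes 0.187% were higher and 0.0287% lower there, and Mmp14 is named here after its value was seen.

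**Figure D5:**
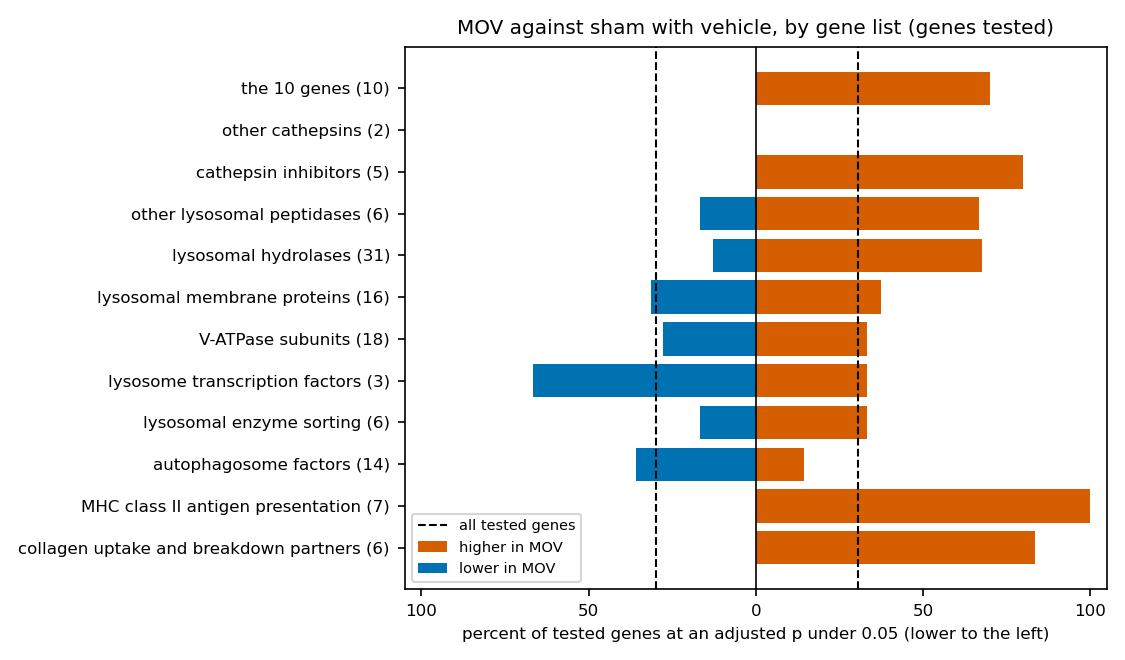
Percent of tested genes in each list (y axis, number tested in parentheses) that were higher (right) or lower (left) in vehicle MOV than in vehicle sham muscle at an adjusted p under 0.05, with broken lines at the shares of all tested genes, 30.7% and 29.8%. The 10 genes, the hydrolases (21 of 31), other peptidases (4 of 6), cathepsin inhibitors (4 of 5), MHC class II genes (7 of 7) and collagen genes (5 of 6) lie well beyond the right line. Membrane proteins (37.5%) and the V-ATPase, sorting and transcription factor lists (33.3% each) lie just beyond it. Of the 3 tested transcription factors 1 was higher and 2 were lower, so that list also lies well beyond the left line. With total counts alone the bars of the membrane proteins and the V-ATPase subunits shift to the right, and the share of all tested genes higher in MOV moves to 52.6%.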

How the data were processed

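RNA of plantaris muscle from 20 mice was sequenced, and the submitters' processing notes name STAR 2.7.8a, Partek and GRCm39. The authors used Partek's expectation-maximization method to assign reads to genes, and the deposited table holds the estimated counts it gave, not normalized. Of the deposited values 29.8% are not whole, and they were rounded. No row sums to less than 10 counts, and no pair of mice in a group agreed within sampling noise. The labels number the mice but do not say that a number is shared between groups.

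Groups of 5 were compared with edgeR 4.0.16 (R 4.3.3, TMM, robust quasi-likelihood), keeping genes that reached 10 counts in 5 or more mice of the fit, with Benjamini-Hochberg adjustment over all tested genes and a threshold of 0.05. Each comparison used its own 10 mice and the interaction all 20. The script was tested on simulated data. Log2 CPM used a prior count of 2. Alternatives were RLE factors, total counts only, no minimum count, DESeq2 1.42.0, a single fit of all 20 mice, limma 3.58.1 (voom with sample quality weights), the replicate number as a block, each mouse left out, and other gene lengths, of which the Ensembl canonical transcript was chosen after seeing the data. Positions and lengths came from GENCODE vM39 on GRCm39 and promoters from RefSeq on GRCm38.p6.

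Besides the 10 members, the genes named are the largest rise and the largest fall of each pathway list in MOV against sham with vehicle, and the 2 nearest genes to each member. Markers are named where their level moves with a result. The members, the 11 pathway lists, the 10 marker lists and the motifs were chosen with earlier results of these data known.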

Additional observations from a re-analysis of the deposited data

Results flagged for a closer look

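Among 40 sets of 5 mice (10 genes in 4 groups), 3 held a mouse far from the other 4, where chance flags about 1 set in 20. Ctsa in vehicle MOV mouse 4 was at 88.0 CPM, the others being between 72.6 and 75.4 CPM. Ctsb in D + Q MOV mouse 3 was at 462.8 CPM, above 405.4 to 416.3 CPM in the others. Lgmn in D + Q sham mouse 2 was at 34.0 CPM, above 28.8 to 29.8 CPM in the others.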

How the results depend on the processing

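Scaling by total counts alone shifted all genes up with overload, and with it Ctsd turned to 0.26 with vehicle and 0.20 with D + Q, no member was lower with D + Q (0), and the lysosomal lists gave 56 higher and 2 lower with vehicle and 4 lower with D + Q. DESeq2 called 1 member higher with D + Q in sham muscle, Ctsk, and the cause was not tested. Leaving out 1 mouse at a time gave 0 to 1 members lower in MOV with D + Q, 7 to 8 higher with vehicle and 8 to 8 higher with D + Q, and put the small Ctss difference in sham muscle between -0.18 (without D + Q sham mouse 2) and 0.35. The share of Ctsd with the longest transcript was 65.5% in vehicle sham, 65.1% in D + Q sham and 46.3% in D + Q MOV mice, and with the canonical transcript 63.9%, 63.4% and 41.8% in these groups and 45.8% in vehicle MOV mice. Mice with the same number in their sample titles had correlations of deviations between -0.15 and 0.185. Mouse 4 of vehicle MOV and vehicle sham gave the 0.185, against at most 0.081 with mice of other numbers. Such small correlations cannot decide whether mice were paired. With the replicate block the count of members called between treatments in sham muscle stayed 0, and Ctsc with vehicle had an adjusted p of 0.0381 (edgeR), while over the lysosomal lists 37 were higher with vehicle and 42 with D + Q. Ctsc with vehicle also passed by DESeq2 (0.0333), limma (0.0415) and in the fit of all 20 mice (0.0281).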
